A study of Mus musculus with 6 samples.

Results

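The type I interferon-stimulated antiviral genes are 41 genes that cells switch on when an interferon signal reaches them. They were taken by symbol from the 48587 genes of the deposited counts table, and all 41 were present. The 41 were chosen with earlier results of these data known, so their excess over all genes is a description. They were grouped by role into transcription factors, nucleic acid sensors, the OAS and IFIT families, direct antiviral effectors, genes of ISG15 conjugation and ADP-ribosylation, other interferon-stimulated genes, and the feedback inhibitor Socs1. RNA came from 4T1 cells, a mouse mammary carcinoma line grown in DMEM/F12 with fetal bovine serum. The 3 METTL7A1 libraries were from 4T1-METTL7A1 cells, which carried the complete Mettl7a1 cDNA in the plasmid pBICEP-CMV-2 as stable transfectants kept in G418, and the 3 mock libraries were from 4T1 mock cells, stable transfectants with the empty vector. The comparison asks which RNAs differ when METTL7A1, a membrane-associated methyltransferase-like protein, is overexpressed. The sources do not say whether the transfectants were 1 clone or a pool. The libraries are described as biological triplicates, and since no source says that transfections were repeated, p-values measure only the spread between these libraries.

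Type I interferons are secreted when a cell senses foreign or misplaced nucleic acid. They bind the receptor IFNAR1/IFNAR2, whose kinases JAK1 and TYK2 phosphorylate STAT proteins. STAT2 and IRF9 are subunits of ISGF3, a complex that binds the interferon-stimulated response element (ISRE) in promoters and raises genes that block viral entry, translation and replication. Many cells keep a low tonic level of these transcripts without added interferon.

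Total counts ran from 18386780 to 28459338 per library. Mettl7a1 had 6355, 11358 and 10398 counts in the METTL7A1 libraries and 30, 30 and 29 in mock, so the labels held. Libraries of the same group correlated at 0.991 to 0.997 over log levels of the genes tested, and libraries of different groups at 0.968 to 0.973. The share of counts on AY036118, a transcript from the ribosomal RNA repeat, ranged from 0.502% to 4.53% in METTL7A1 libraries and from 0.966% to 13.1% in mock, and mitochondrial ribosomal RNA took 10.6% to 15.6% against 6.93% to 9.61%. The epithelial genes Krt8, Krt18, Krt19, Epcam and Cdh1 were at 1410 to 1730 cpm in sum, where cpm is the library-scaled count, and none of the 5 was called. Of 16 immune cell markers, 12 had at most 3 counts in any library, and Cd3e, Nkg7 and Klrb1c had 0 in all 6. The summed level of the 16 was nevertheless higher with METTL7A1, at 15 to 17.4 cpm against 6.18 to 6.92, mainly through Cd68 (12.8 against 5.43 cpm) and Csf1r (2.41 against 0.764 cpm), and its part in the results below was not tested. The 7 fibroblast and endothelial markers summed to 24.7 to 27.5 cpm with METTL7A1 and 18.1 to 20.2 cpm in mock, of which only Pdgfra reached the filter (0.47, adjusted p = 0.00177), and this too was not tested for its part.

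Most of the interferon-stimulated genes were higher in 4T1-METTL7A1 cells. Their summed level was 760, 767 and 754 cpm in the METTL7A1 libraries and 510, 535 and 513 cpm in mock, so the groups did not overlap. Of the 41, 34 reached 1 cpm in at least 3 libraries and were tested. At an adjusted p under 0.05, 28 of the 34 were higher, 1 was lower (Socs1) and 5 were not called (Irf9, Eif2ak2, Oas1g, Ifit2 and Isg20). Among all 13166 genes tested, 21.1% were called higher and 21% lower. Under the stricter thresholds of the study, an adjusted p under 0.01 with a log2 fold change beyond 1.5 in size, 9 of the 34 were higher, against 1.61% of all genes tested. These 9 were Rsad2, Usp18, Oas3, Oasl1, Ifit1, Rtp4, Oasl2, Cmpk2 and Dhx58. The median log2 fold change of the 34 was 0.72 and that of all genes tested -0.03. Rsad2, Usp18 and Cmpk2 were under 1 cpm in every mock library and so entered the test only through the METTL7A1 libraries. Oas3, Ifit1 and Irf7 were under 1 cpm in at least 1 mock library, so they too passed the filter only with METTL7A1 libraries. Counted without genes under 1 cpm in every mock library, a choice added after seeing the data, 25 of 31 members were higher and 6 passed the study thresholds, beside 20.3% and 0.961% of 13010 genes. That count still includes Oas3, Ifit1 and Irf7, so it does not remove all selection by the filter. METTL7A1 replicate 1 and mock replicate 1 had the lowest and the highest share of AY036118. With both left out, a choice made after seeing the data, 25 of the 34 were higher and 0 lower, beside 2415 higher among all 13166 genes.

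**Figure D1:**
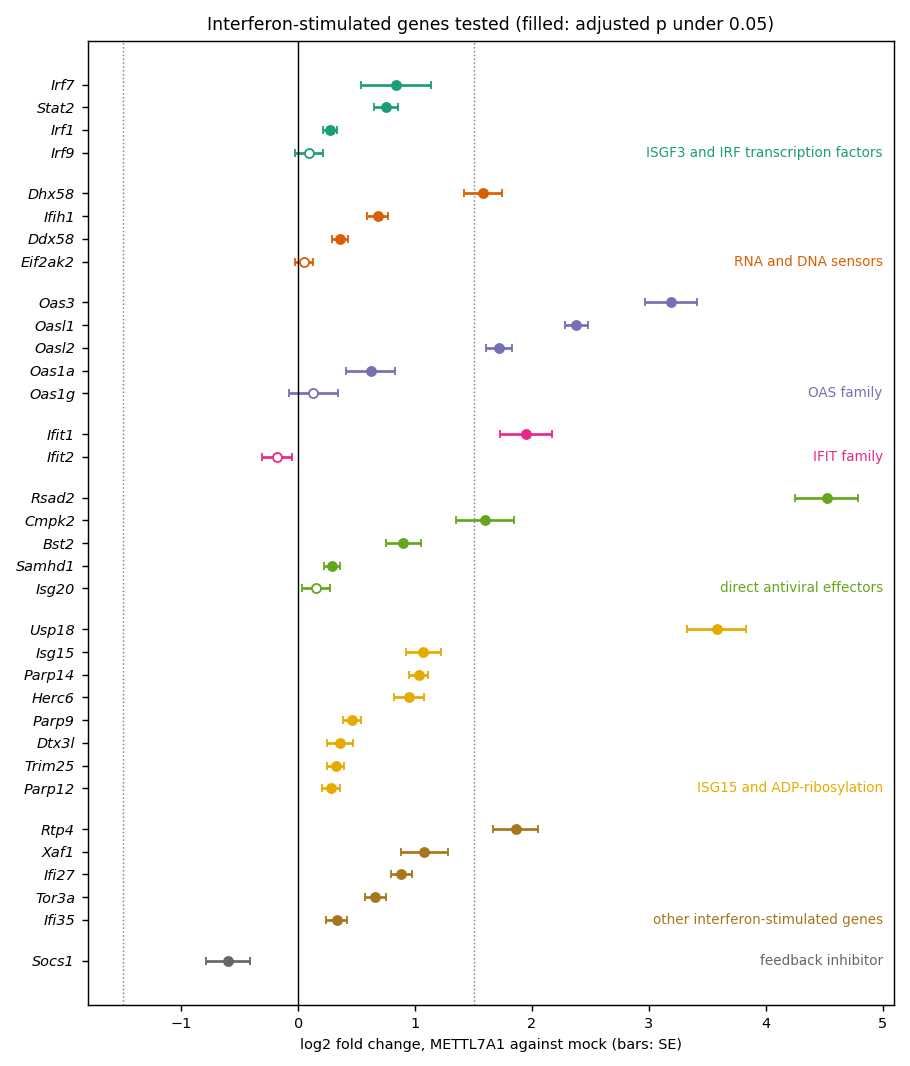
Log2 fold change (METTL7A1 against mock, x axis) with its standard error for each of the 34 interferon-stimulated genes tested, in blocks by role; filled points have an adjusted p under 0.05 and dotted lines mark 1.5 in either direction. The values run from -0.6 (Socs1) to 4.52 (Rsad2), and each of the OAS, IFIT and sensor blocks holds both a gene past the dotted line and a gene that was not called.

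The difference was seen library by library. In 28 of the 34 genes tested, all 3 METTL7A1 libraries lay above all 3 mock libraries, which held for 25.9% of all genes tested. In 1, Socs1, all 3 lay below. Relative to the mock mean, the median log2 ratio over the 34 genes was 0.68, 0.74 and 0.61 in the METTL7A1 libraries and -0.03, 0.06 and -0.01 in the mock libraries. In these bulk libraries, a change in the share of cells that express a gene and a change in the amount per cell cannot be told apart.

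**Figure D2:**
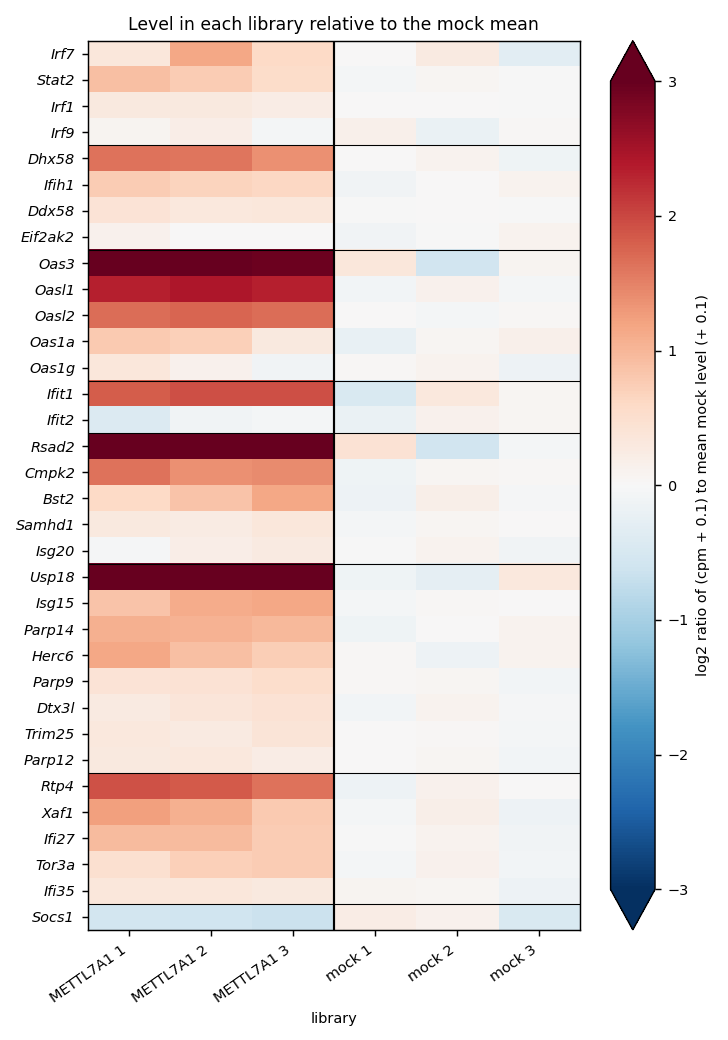
Level of each of the 34 genes tested (rows, in blocks by role) in each of the 6 libraries (columns), as the log2 ratio of its cpm plus 0.1 to the mean mock cpm plus 0.1; the colour scale ends at 3, which Oas3, Rsad2 and Usp18 pass. The METTL7A1 columns have median log2 ratios of 0.68, 0.74 and 0.61 and the mock columns stay near 0.

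Of the ISGF3 subunits among the members, Stat2 rose while Irf9 was not called. Stat2, the subunit that carries the main activating domain, had 571, 822 and 598 counts with METTL7A1 and 289, 414 and 403 in mock. Its level was 27.6 ± 3.27 cpm against 16.4 ± 0.655 cpm (mean ± SD, n = 3 libraries each, as for all levels below), without overlap (log2 fold change 0.75, SE 0.10, adjusted p = 1.6e-04). Irf9, the DNA-binding subunit, had 261, 452 and 317 counts against 272, 277 and 336, and its levels overlapped at 14.1 ± 1.22 and 13.3 ± 1.73 cpm (0.09, SE 0.12, adjusted p = 0.58). The exons of Irf9 overlap those of Rnf31 on the same strand over 123 bases, so the reads there could not be assigned to either gene with certainty.

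Stat2 lies on chromosome 10 among genes that were themselves higher. Over the 40 expressed genes nearest to Stat2 the median was 0.44, and over those nearest to Irf9 it was -0.3. With each gene's neighbour median taken as an offset, Stat2 was at 0.32 (adjusted p = 0.0326) and Irf9 at 0.39 (adjusted p = 0.0281), so both were then called. Under that offset 26 of the 34 genes were higher, against 18.1% of all genes tested, and Samhd1, Dtx3l and Parp12 were no longer called.

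The interferon regulatory factors Irf1 and Irf7 were also higher. Irf1, an activator that also acts downstream of interferon gamma, had 1275, 2040 and 1612 counts against 1023, 1367 and 1384. Its levels of 67.7 ± 2.04 and 56.0 ± 0.358 cpm did not overlap, and the difference was small (0.27, SE 0.06, adjusted p = 0.00545). Irf7, which amplifies transcription of the interferon alpha genes, had only 21, 62 and 34 counts against 16, 26 and 17. Its level was 1.54 ± 0.503 cpm against 0.877 ± 0.194 cpm (0.84, SE 0.30, adjusted p = 0.0443), and replicate 2 stood highest of the METTL7A1 libraries. The call was lost without METTL7A1 replicate 2 (0.52, adjusted p = 0.259), METTL7A1 replicate 3 (adjusted p = 0.0599), mock replicate 1 (adjusted p = 0.0939) or mock replicate 3 (adjusted p = 0.105).

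Promoter letters show how these genes resemble each other in sequence. The ISRE core was searched as GAAANNGAAA on either strand, from 250 bases before to 50 after the start site, in RefSeq promoters of build GRCm38.p6. A promoter was listed for 30 of the 41 genes. The core stood in 14 of the 30 (46.7%), against 3.99% of all 27025 genes with a promoter. It stood in 9 of the 21 members called higher and in 3 of the 6 members that were not called or lower. The gamma-activated site, searched as TTCNNNGAA, which reads the same on both strands, stood in 8 of the 30 and in 9.55% of all genes. A match is only a match of letters in the reference genome, and 4T1 DNA was not read. The genes without an entry were Usp18, Dhx58, Rtp4, Oas2, Mx1, Mx2, Parp9, Parp14, Ifi27, Tor3a and Zbp1.

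The stretches shown first belong to members that rose, with the core in capitals, on the strand of the gene, 5′ to 3′. Isg15 holds 3 overlapping cores in 1 run.
Rsad2 (chr12:26456533-26456602, minus strand): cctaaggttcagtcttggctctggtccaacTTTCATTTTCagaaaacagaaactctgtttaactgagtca
Oas3 (chr5:120777695-120777764, minus strand): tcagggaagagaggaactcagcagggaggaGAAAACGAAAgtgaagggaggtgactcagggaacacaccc
Ifit1 (chr19:34640755-34640843, plus strand): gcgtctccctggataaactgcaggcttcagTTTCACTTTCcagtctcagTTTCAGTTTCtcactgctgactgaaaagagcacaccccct
Isg15 (chr4:156200845-156200926, minus strand): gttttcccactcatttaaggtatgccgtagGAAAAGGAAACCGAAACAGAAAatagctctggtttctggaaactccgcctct
Stat2 (chr10:128270248-128270315, plus strand): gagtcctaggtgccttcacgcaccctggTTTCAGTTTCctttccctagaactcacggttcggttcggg

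A second set shows the same letters at 3 genes that were not called higher, beside Oas1a, which was. Oas1a and Oas1g carry the same capitals and nearly the same flanks. Oas1a was called higher (0.62, SE 0.21) and Oas1g was not (0.13, SE 0.21), but the difference between them was not tested. The split of reads between these paralogs is also uncertain. The core of Eif2ak2 lies just inside the transcript, and Socs1, the only member called lower, holds a pair of overlapping cores. The calls of Oas1a and Socs1 were each lost when certain single libraries were left out, as given below.
Oas1a (chr5:120907500-120907575, minus strand): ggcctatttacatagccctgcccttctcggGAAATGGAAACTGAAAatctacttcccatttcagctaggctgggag
Oas1g (chr5:120887586-120887661, minus strand): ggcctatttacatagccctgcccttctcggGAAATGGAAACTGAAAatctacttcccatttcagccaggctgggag
Eif2ak2 (chr17:78882523-78882584, minus strand): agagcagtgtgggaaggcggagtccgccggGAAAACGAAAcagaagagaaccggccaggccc
Socs1 (chr16:10785574-10785649, minus strand): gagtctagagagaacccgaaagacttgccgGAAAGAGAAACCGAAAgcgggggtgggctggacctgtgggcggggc

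Among the sensors of foreign RNA, the 3 RIG-I-like receptors were higher and the kinase PKR was not called. Dhx58 (LGP2), which tunes the signalling of the other RIG-I-like receptors, had 146, 232 and 164 counts with METTL7A1 and 46, 65 and 57 in mock. It was at 7.46 ± 0.699 against 2.5 ± 0.195 cpm, the METTL7A1 libraries all higher (1.58, SE 0.16, adjusted p = 2.11e-05). Ifih1 (MDA5), a receptor of long double-stranded RNA, had 533, 796 and 642 against 287, 408 and 451 counts, or 27.2 ± 1.37 and 16.9 ± 1.23 cpm (0.68, SE 0.09, adjusted p = 1.25e-04). Its groups were also apart. Ddx58 (RIG-I), a receptor of RNA with a 5′ triphosphate, was at 46.7 to 49.6 cpm against 37.3 to 37.8 cpm (0.36, adjusted p = 0.00142). Eif2ak2 (PKR), which halts translation when it binds double-stranded RNA, had 777, 1143 and 945 against 651, 921 and 1026 counts, with overlap (0.05, SE 0.08, adjusted p = 0.674).

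Zbp1, a sensor of Z-form nucleic acid that can start necroptosis, stayed under the filter. It had 12, 27 and 32 counts with METTL7A1 and 6, 6 and 9 in mock, so the METTL7A1 libraries were higher without overlap. Fitted without an abundance filter, where 11.6% of 28601 genes were called higher, its log2 fold change was 1.65 (adjusted p = 3.92e-04).

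The OAS family makes or resembles the enzymes that make 2′-5′ oligoadenylate, a messenger of the antiviral response. Oas3, which responds to long double-stranded RNA, had 161, 280 and 200 counts against 23, 15 and 26. It was at 8.76 ± 0.688 cpm against 0.974 ± 0.325 cpm, with every METTL7A1 library far above mock (3.19, SE 0.22, adjusted p = 1.38e-06). Oasl1, a member without synthetase activity that represses Irf7 translation, had 481, 821 and 644 counts against 88, 134 and 122. Its levels of 26.6 ± 1.03 and 5.08 ± 0.389 cpm were tight within groups (2.38, SE 0.10, adjusted p = 5.14e-08). Oasl2 had 293, 492 and 392 against 91, 115 and 124 counts, or 16.1 ± 0.474 and 4.9 ± 0.137 cpm (1.72, SE 0.11, adjusted p = 7.9e-07). The groups of both were clearly separate.

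The neighbouring synthetases Oas1a and Oas1g lie in the same cluster as Oas3 on chromosome 5 and had smaller values. Oas1a had 67, 102 and 63 counts against 32, 52 and 57 and was at 3.21 ± 0.57 against 2.06 ± 0.282 cpm (0.62, SE 0.21, adjusted p = 0.0345), with METTL7A1 replicate 3 only just above the highest mock library. That call was lost without METTL7A1 replicate 1 (adjusted p = 0.094), METTL7A1 replicate 2 (0.143), mock replicate 1 (0.101) or mock replicate 2 (0.0646). Oas1g had 48, 66 and 46 against 38, 53 and 45 counts, with overlap (0.13, SE 0.21, adjusted p = 0.649). The pair share 68.7% of the 31-base words of the Oas1a transcripts and 54.6% of those of Oas1g, so the split of reads between them is uncertain. Oas2 had only 13, 8 and 4 counts against 2, 0 and 4 and was not tested. Replicate 3 of both groups had 4 counts, so the groups touched, and without a filter Oas2 was called higher (adjusted p = 0.0237).

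The IFIT genes lie side by side on chromosome 19 and encode proteins that bind foreign RNA ends and block its translation. Ifit1, which recognises caps without ribose methylation, had 86, 148 and 125 counts against 16, 38 and 32. It was at 4.9 ± 0.236 against 1.24 ± 0.349 cpm, and no library overlapped (1.95, SE 0.22, adjusted p = 4.43e-05). Ifit2, its partner in the same complexes, was not called, with 165, 323 and 277 counts against 188, 311 and 302 (-0.18, SE 0.13, adjusted p = 0.285). The groups of Ifit2 overlapped, and the median log2 fold change of the neighbours was 0.09 around both genes. Ifit3 had 5, 8 and 6 counts against 2, 7 and 6, and its copy Ifit3b 4, 6 and 2 against 1, 3 and 2. Both overlapped between groups, both were too low to test, and they share 61.8% of the 31-base words of Ifit3, so each value is uncertain. Without a filter neither was called (adjusted p = 0.8 and 0.566).

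Rsad2 showed the largest change of all members. It encodes viperin, which makes a chain-terminating nucleotide, and lies on chromosome 12 (mm10 chr12:26442753-26456452) next to Cmpk2, a mitochondrial nucleotide kinase. Rsad2 had 111, 215 and 160 counts with METTL7A1 and 8, 4 and 7 in mock. Its level was 6.58 ± 0.654 against 0.295 ± 0.137 cpm, a 22.9-fold difference with no overlap (log2 fold change 4.52, SE 0.27, adjusted p = 5.86e-07). Cmpk2 had 35, 46 and 40 counts against 9, 14 and 14, or 1.69 ± 0.174 and 0.544 ± 0.0459 cpm (1.60, SE 0.25, adjusted p = 4.94e-04). Both rose in a stretch where the 40 nearest expressed genes had a median log2 fold change of -0.5.

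Other direct effectors differed less. Bst2, the tetherin that holds budding virions at the membrane, had 288, 554 and 571 counts against 169, 281 and 249 and was higher in each METTL7A1 library (0.90, SE 0.15, adjusted p = 6.06e-04). Samhd1, which depletes deoxynucleotides, was at 54.9 to 58.8 cpm against 44.5 to 48 cpm (0.29, adjusted p = 0.00578), and the difference was no longer called with the neighbour offset (0.13, adjusted p = 0.175). Isg20, an exonuclease of single-stranded RNA, had 160, 301 and 261 against 161, 230 and 205 counts, with overlap (0.15, SE 0.12, adjusted p = 0.35). The dynamin-like GTPases were near the detection limit, with 7, 5 and 5 counts against 2, 0 and 1 for Mx1 and 13, 30 and 15 against 2, 6 and 5 for Mx2. Neither passed the filter and neither overlapped between groups. Without a filter both were called higher (adjusted p = 0.0447 for Mx1 and 1.43e-04 for Mx2).

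All 8 genes of ISG15 conjugation and of ADP-ribosylation were higher. Usp18, the protease that removes ISG15 from proteins and also holds back signalling at IFNAR2, had 84, 140 and 103 counts against 6, 7 and 12. It was at 4.48 ± 0.284 against 0.367 ± 0.103 cpm, a 12-fold difference (3.58, SE 0.25, adjusted p = 1.69e-06). Isg15, the ubiquitin-like modifier itself, had 108, 208 and 177 counts against 56, 79 and 80 and was at 6.68 ± 0.748 against 3.18 ± 0.105 cpm (1.07, SE 0.15, adjusted p = 2.37e-04). In both genes every METTL7A1 library was above every mock library. Herc6, the main ISG15 ligase of mouse cells, was at 12 to 16 cpm against 6.44 to 7.65 cpm (0.95, adjusted p = 2.38e-04). The exons of Herc6 overlap those of Gm45193 on the same strand over 1269 bases, so reads there could not be assigned with certainty. Gm45193 had 0 counts in every library. Trim25, the ubiquitin ligase of RIG-I signalling, was at 90.6 to 97.5 cpm against 72.5 to 76.9 cpm (0.32, adjusted p = 0.00251).

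The ADP-ribosylation genes Parp14, Parp9 and Dtx3l lie together on chromosome 16. Parp14, a transferase with macrodomains, had 845, 1336 and 1054 counts against 360, 536 and 582. Its level of 44.5 ± 1.53 against 21.7 ± 1.9 cpm was apart in every library (1.03, SE 0.08, adjusted p = 4.8e-06). Parp9 and its partner ligase Dtx3l differed less, at 0.46 (adjusted p = 0.00118) and 0.36 (adjusted p = 0.021), beside a neighbour median of 0.17 for all 3. The exons of Parp9 and Dtx3l overlap over 367 bases on opposite strands, and how strand was set in counting is not given. Dtx3l was not called with the neighbour offset (0.18, adjusted p = 0.229), nor without METTL7A1 replicate 2 (0.0874), METTL7A1 replicate 3 (0.0779) or mock replicate 1 (0.0621). Parp12, a mono-ADP-ribosyltransferase with antiviral activity, was at 35.5 to 38 cpm against 28.6 to 32 cpm (0.28, adjusted p = 0.0124). It was lost without METTL7A1 replicate 2 (adjusted p = 0.0662) and with the offset (adjusted p = 0.0603).

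The other interferon-stimulated genes that could be tested were all higher. Rtp4, a chaperone of receptor trafficking, had 104, 158 and 113 counts against 23, 38 and 35. It was at 5.18 ± 0.532 against 1.41 ± 0.155 cpm, without overlap (1.86, SE 0.19, adjusted p = 2.36e-05), and it overlaps 296 exon bases of RP23-389N20.2 on the same strand, a gene with at most 27 counts. Ifi27, a mitochondrial protein, had 774, 1238 and 912 counts against 396, 565 and 505, or 40.2 ± 2.79 and 21.8 ± 1.5 cpm (0.88, SE 0.09, adjusted p = 1.89e-05). Its METTL7A1 libraries were all higher. Xaf1, an antagonist of the apoptosis inhibitor XIAP, was at 1.08 (SE 0.20, adjusted p = 0.00153), and Tor3a, a torsin-family ATPase, at 0.66 (adjusted p = 2.3e-04). Ifi35, a regulator of innate signalling, was at 0.33 (adjusted p = 0.017) and was lost without METTL7A1 replicate 2 (0.31, adjusted p = 0.0671). Ifi44 had 14, 21 and 24 counts against 11, 12 and 17 and was not tested. Its levels of 0.711 to 0.973 cpm lay just above the 0.495 to 0.684 cpm of mock, and without a filter it was not called (adjusted p = 0.451).

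Socs1, the feedback inhibitor that blocks JAK kinases, was the only member called lower. It had 71, 110 and 89 counts with METTL7A1 and 121, 152 and 102 in mock. Its levels were 3.72 ± 0.109 and 5.66 ± 1.36 cpm, and mock replicate 3 at 4.11 cpm lay only just above the METTL7A1 libraries (-0.6, SE 0.19, adjusted p = 0.0264). The call was lost without METTL7A1 replicate 2 (adjusted p = 0.0733), METTL7A1 replicate 3 (0.059), mock replicate 1 (0.122) or mock replicate 2 (0.0929).

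Per length, the members covered a wide range of levels. In mock cells the highest per kilobase of exon were Ifi27 at 21.2 cpm per kb, Irf1 at 16.8, Bst2 at 13, Trim25 at 13 and Ifi35 at 11. In METTL7A1 cells the same measure gave 39.2 for Ifi27, 20.3 for Irf1, 24.2 for Bst2, 16.3 for Trim25 and 13.7 for Ifi35. The lowest in mock were Mx1 at 0.0147 and Oas2 at 0.0227 cpm per kb. Rsad2 went from 0.0781 to 1.74 cpm per kb which is near Mx2 in mock cells (0.0768) and near Oas1a in METTL7A1 cells (1.70).

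**Figure D3:**
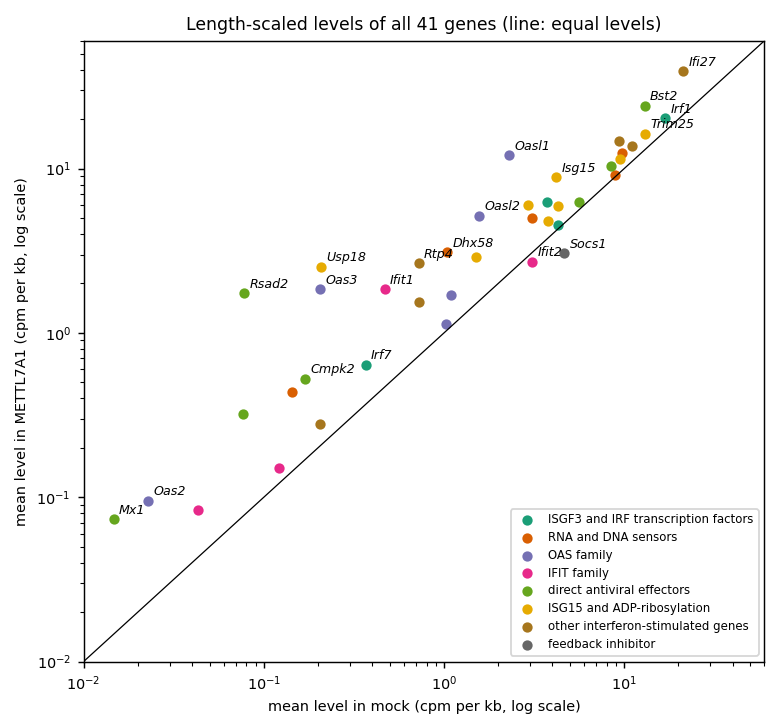
Mean level per kilobase of exon in METTL7A1 cells (y axis) against mock cells (x axis), both log scales in cpm per kb, for all 41 genes coloured by role; the line marks equal levels. Rsad2 (0.0781 to 1.74) lies furthest above the line, and Ifi27 (21.2 to 39.2) is the most abundant.

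Over the range of abundance, the members lay mostly in the upper part of all genes tested. Of the 34, 32 had a log2 fold change above the median of all genes tested, -0.03, and the exceptions were Ifit2 and Socs1. Their fold changes fell short of that of the transfected gene, which was 8.17 (SE 0.14, adjusted p = 4.89e-11).

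**Figure D4:**
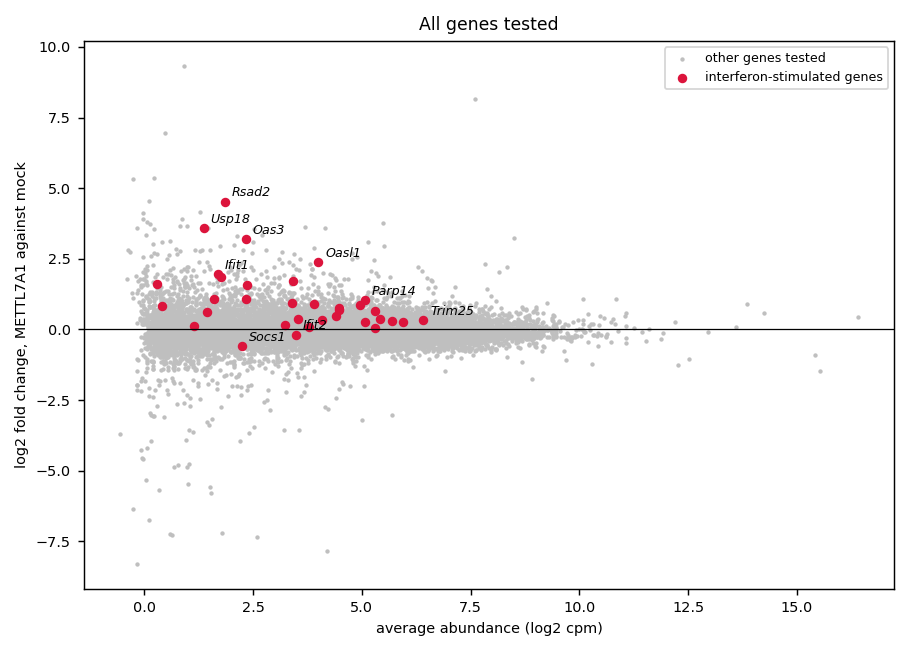
Log2 fold change (METTL7A1 against mock, y axis) against average abundance (log2 cpm, x axis) for all 13166 genes tested in grey and the 34 interferon-stimulated genes in red. Among the red points only Ifit2 and Socs1 lie below the all-gene median of -0.03.

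Upstream of these genes, interferon transcripts themselves were hardly seen. Of 21 interferon genes, 15 had 0 counts in all 6 libraries and 20 had at most 3 counts in any library, and none could be tested. The exception was Ifne, with 4, 0 and 0 counts against 2, 2 and 1. Their summed counts were 8, 1 and 1 with METTL7A1 and 3, 6 and 6 in mock, so no difference was detectable at this depth, where 3 counts correspond to 0.102 to 0.164 cpm. Interferon protein was not measured.

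Of 11 receptor and JAK-STAT genes, 5 were higher and 1 lower, beside 21.1% and 21% of all genes tested. These were Ifnar2 (0.65, adjusted p = 1.75e-04) and Ifnar1 (0.42, adjusted p = 9.44e-04), the chains of the type I receptor, Ifnlr1 (0.87, adjusted p = 2.98e-04) and Il10rb (0.86, adjusted p = 0.00119), the chains of the type III receptor, and the kinase Tyk2 (0.44, adjusted p = 0.00359). Ifngr1, the ligand-binding chain for interferon gamma, was lower (-0.30, adjusted p = 0.0165), but not without mock replicate 1 or mock replicate 2, and was at 0.10 with the neighbour offset. Ifngr2, Jak1, Jak2 and Stat3 were between -0.05 and 0.11 and not called.

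In the pathway that induces interferon, 6 of 12 genes were higher, beside 21.1% of all genes tested. Of the 12, 2 were lower, near the all-gene share of 21%. Ikbke, a kinase that activates IRF3 and IRF7, had 3099, 4380 and 3113 counts against 821, 979 and 1166 and had the largest log2 fold change of the 12 (1.74, SE 0.10, adjusted p = 5.86e-07). Tlr3, an endosomal receptor of double-stranded RNA, was at 0.88 (adjusted p = 2.43e-05), Irf8 at 0.85, and Tmem173 (STING), Tbk1 and Mavs at 0.44, 0.42 and 0.40. Of these 6, Ikbke, Tlr3 and Irf8 were still called with the neighbour offset, which is 3 of 12 beside 18.1% of all genes, and Tbk1 was at -0.01. The adaptor Traf3 was lower (-0.47, adjusted p = 2.09e-04), as was Irf5 (-0.88, adjusted p = 0.00215). Of 7 further negative regulators of interferon signalling, 1 was higher and 0 were lower, beside 21.1% and 21% of all genes tested. The 1 called was Socs3 (0.32, adjusted p = 0.0319). Its call was lost without METTL7A1 replicate 2 (adjusted p = 0.111), METTL7A1 replicate 3 (0.0992), mock replicate 2 (0.0674) or mock replicate 3 (0.0708).

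A further 50 interferon-stimulated genes, not among the 41, were counted in the same way. Of these 42 were tested, 32 were higher, 1 was lower and 9 were not called, beside 21.1% higher and 21% lower among all genes tested. Their median was 0.64, against -0.03 for all genes tested. Of the 42, 1 was under 1 cpm in every mock library and so entered the test only through the METTL7A1 libraries. Like the members, this list was chosen with earlier results of these data known. The smallest p-values belonged to the apolipoprotein L genes Apol9b (1.94) and Apol9a (1.73), whose reads may be shared, Lgals3bp (1.96), Ly6e (1.77), which restricts coronavirus entry, Ifi203 (1.30) and Slfn8 (1.30). The 1 lower gene was Rnf213 (-0.24, adjusted p = 0.0465), whose call was lost with the neighbour offset (-0.11) and without METTL7A1 replicate 2, METTL7A1 replicate 3, mock replicate 1 or mock replicate 2. NF-kB target genes are a response that is often induced together with interferon. Of 12 such genes, 3 were higher, led by Tnf (3.08), a count near the all-gene share of 21.1%. Among the 12, 1 was under 1 cpm in every mock library and so entered the test only through the METTL7A1 libraries. Another 6 were lower, led by the inhibitor Nfkbia (-1.05) and Nfkb2 (-0.91), beside 21% of all genes tested.

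**Figure D5:**
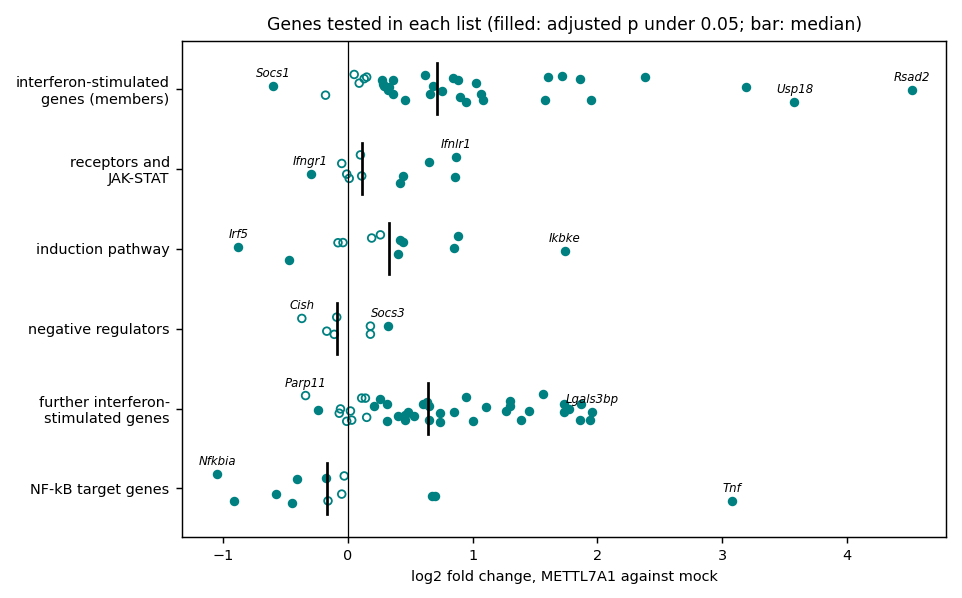
Log2 fold change (METTL7A1 against mock, x axis) of each gene tested in the members and in 5 other lists; filled points have an adjusted p under 0.05 and bars mark list medians. The medians of the members (0.72) and of the further interferon-stimulated genes (0.64) lie above those of receptors and JAK-STAT genes (0.11), the induction pathway (0.33), negative regulators (-0.09) and NF-kB targets (-0.17).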

How the data were processed

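Total RNA of 4T1 cells was sequenced from stranded libraries depleted of ribosomal RNA. The authors trimmed reads with BBDuk, aligned pairs to mm10 with STAR 2.5.3a, counted them per gene with featureCounts and left the deposited counts raw, with no normalization. Per the file headers, the table also lists other values of the annotation, the exons and the exon length of each gene, used here for levels per kb. How strand and multiply mapped reads were set is not given in the sources used here. All count columns belonged to the 6 libraries.

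Counts were scaled with TMM and tested with the quasi-likelihood test of edgeR 4.0.16 in R 4.3.3, without covariates, over the 13166 genes with at least 1 cpm in at least 3 libraries, with Benjamini-Hochberg adjustment over all of them. Fold changes are log2, METTL7A1 over mock. Alternatives were RLE (the DESeq2 size factors) and upper quartile scaling, no filter, at least 10 counts in every library, a mean of at least 1 cpm, a replicate block, DESeq2 1.42.0, limma-voom 3.58.1, leaving out each library (keeping the same 13166 genes), and an offset equal to the median fold change over the 40 closest genes on the chromosome with an average log2 cpm above 2. Further choices were added after seeing the data: leaving out the ribosomal repeat genes, leaving out the 2 libraries of extreme AY036118 share, and counting without genes under 1 cpm in every mock library.

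The members and lists were chosen with earlier results of these data known. Every member is named, and some genes of other lists are not reported here. Full values are given for ISGF3 and IRF factors, for members past the thresholds of the study and for the 2 smallest p-values of each role, and at most 6 called genes of each other list are named, with any of opposite direction. Promoters are RefSeq, build GRCm38.p6. In 86 of 95 promoters checked, the bases after the start site stood in a transcript of the same gene and strand. Shared 31-base words were counted in GENCODE transcripts. Standard errors are from the edgeR fit, and SDs are over the 3 libraries of a group.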

Additional observations from a re-analysis of the deposited data

How the results depend on the processing

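The count of members called higher, 28 of 34, was 26 to 28 of 34 under the other scalings and tests and with a mean of at least 1 cpm. Without a filter it was 32 of 41, beside 3326 of 28601 genes. With at least 10 counts in every library it was 25 of 32, beside 2704 of 13495 genes. When 1 library was left out it was 23 (without METTL7A1 replicate 2) to 27 of 34. Without that replicate, genes called higher among all 13166 also fell, from 2778 to 1986. Fitted with a replicate block the member count was 26, beside 2463 of 13166 genes, with Irf7 (adjusted p = 0.0518) and Oas1a (0.074) not called. The deviations of same-numbered libraries from their group means correlated at -0.16, 0.23 and -0.39. With 3 libraries per group, these values cannot decide whether replicate numbers mark pairs. With DESeq2 the member count was also 26, beside 2664 of 13166 genes, and Irf7 (0.1) and Oas1a (0.058) were not called. The median log2 fold change of the members, 0.72, was 0.87 without a filter, 0.64 with at least 10 counts in every library, and 0.65 to 0.76 when 1 library was left out. Socs1 as the 1 member called lower became 0 to 1 when 1 library was left out and 0 without both libraries of extreme AY036118 share. Members past the study thresholds, 9 of 34, were 11 of 41 without a filter and 6 of 32 with at least 10 counts. Without both libraries of extreme AY036118 share they were 8 of 34. All genes past those thresholds in either direction numbered 326 of 13166, of which 212 were higher. They were 710 of 28601 without a filter and 205 of 13495 with at least 10 counts. The lower call among receptors became 0 with the neighbour offset and without both extreme libraries, and 0 to 1 when 1 library was left out. Induction genes called higher became 3 with the offset. Negative regulators called higher became 2 with upper quartile scaling, 0 with the replicate block and 0 to 2 when 1 library was left out, and those called lower became 1 with upper quartile scaling and 0 to 1 when 1 library was left out. The lower call among further interferon-stimulated genes, Rnf213, became 0 with at least 10 counts, with the replicate block, with the offset and without both extreme libraries, and 0 to 1 when 1 library was left out. Of the genes named here and called with or without the offset, signs turned with it for Ifngr1 (0.10), Tbk1 (-0.01), Krt8 (-0.32) and Cdh1 (0.27). Among genes called in neither, Jak2 (-0.06), Ifngr2 (-0.18), Stat3 (0.03), Ifitm2 (0.03), Adar (-0.02), Nmi (0.14) and Krt18 (-0.09) also changed sign. Where no cause is named, the cause was not tested. Groups of 3 libraries limit the precision of low genes such as Irf7, and 7 members were too low to test at this depth.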

Other observations

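Ratios of 2 genes within 1 library do not depend on how libraries are scaled, and the pairs below were chosen after the values were seen, so they are given without a test. The log2 ratio of Ifit1 to Ifit2 was -0.94, -1.13 and -1.15 in the METTL7A1 libraries and -3.55, -3.03 and -3.24 in mock, a difference of 2.20. Oas3 to Oas1g, synthetases of the same cluster, differed by 3.10, at a mean of 1.98 with METTL7A1 and -1.11 in mock. Stat2 differed by 0.66 relative to Irf9, its partner in ISGF3, a difference that was not seen with the neighbour offset (0.32 for Stat2 and 0.39 for Irf9). Usp18 relative to Socs1, both feedback inhibitors of interferon signalling, differed by 4.22, and Ifnar2 relative to Ifngr2 by 0.64. In each of these pairs the groups did not overlap.

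The genes named next were picked with their values in view. Among the further interferon-stimulated genes, Slfn2 (1.87) and the chemokine Cxcl10 (1.39) were higher, as were the ISG15 enzymes Uba7 (1.56), which activates ISG15, and Ube2l6 (1.11), which conjugates it. Adar (0.03, adjusted p = 0.775), Pml (0.02, adjusted p = 0.872), Nmi (-0.01, adjusted p = 0.957) and Ifitm2 (-0.06, adjusted p = 0.733), also interferon-induced in many cells, were not called.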
